A study of Homo sapiens with 6 samples.

Results

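The genes described here are 10 transcription factor and immediate early genes, FOS, FOSB, FOSL1, FOSL2, JUN, JUNB, JUND, EGR1, ATF3 and IER2. They were chosen by gene symbol from a table of 60605 genes, each matched 1 row, and all 10 passed the filter on low counts that left 16003 genes for testing. They were measured in SW620, an established human colorectal cancer line from a lymph node metastasis. Poly(A) RNA was sequenced from 3 libraries of cells carrying ELAPOR1 in the lentiviral vector pLVX-IRES-Puro and from 3 libraries of cells carrying the same vector empty. Cells of both groups were infected at a multiplicity of 20 with virus packed in HEK293T cells, a human embryonic kidney line. They were selected with 2 ug/ml puromycin and kept in medium with 10% serum, with no further treatment. The labels do not say whether the libraries of a group came from separate transductions or cultures, whether either line was 1 clone, or how long before harvest serum was renewed. The p-values below thus cover only library-to-library spread, which could be technical.

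AP-1 is a family of dimers of basic leucine zipper (bZIP) proteins, in which a JUN protein pairs with another JUN, a FOS or an ATF protein and binds short palindromic DNA elements. FOS, FOSB, JUN, JUNB, EGR1, ATF3 and IER2 are immediate early genes, which growth factors, serum and stress switch on within minutes, through kinases of the ERK and JNK pathways, without new protein synthesis. FOSL1 and FOSL2 encode the later FOS-related factors FRA1 and FRA2, and FOSL1 is known to be kept high by sustained RAS and ERK signalling. In colorectal cancer cells AP-1 is known to act on proliferation, invasion and protease genes.

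The libraries held 16401813 to 20571924 counts. ELAPOR1 itself took 2.06% to 2.12% of all counts in the ELAPOR1 libraries and at most 0.00116% in the vector libraries. The epithelial genes EPCAM, KRT8, KRT18 and VIL1 had mean levels of 56.7 to 795 FPKM (reads per kilobase of exon, scaled to the counted reads of the library) in both groups. CDX2 and CDH17 lay below that range, at means of 9.26 and 2.53 FPKM in vector and 6.19 and 5.17 in ELAPOR1 cells. Of the 6 epithelial markers KRT8 and CDX2 were called lower and CDH17 higher. Fibroblast markers summed to at most 0.44 FPKM and endothelial markers to at most 0.32 in any library. CDH5 had 0 counts over all libraries and COL1A2 and COL3A1 1 each. Per library COL1A1 had 42 to 52 counts, PDGFRB 9 to 27, PECAM1 18 to 27 and VWF 14 to 30. The 3 immune markers summed to 0.10 to 0.19 FPKM in vector and 0.26 to 0.29 in ELAPOR1 libraries. PTPRC had at most 12 counts in any library, CD68 at most 10 and CD3E at most 6. Of these 3 only PTPRC was tested, and it was not called, at a log2 fold change of -0.42. The part of these markers in the results below was not tested. Across all genes, edgeR's quasi-likelihood test (Benjamini-Hochberg adjusted p under 0.05) called 21.4% of the 16003 tested, 1607 higher and 1820 lower in ELAPOR1 cells. limma on log2(FPKM + 1) split its calls further toward lower genes, 727 higher and 1406 lower.

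The upstream sequences of the 3 members that fell, JUN, JUNB and EGR1, are shown first, with that of FOS for comparison, since short elements near the start of these genes are where serum and stress signals are known to act. They are the 250 bases before the transcription start, on the gene's own strand, from RefSeq (GRCh38.p14). Capitals mark matches, on either strand, to TGANTCA (the AP-1 element), TGANNTCA (the form with 1 more base in its centre, which includes the cyclic AMP response element), TGACGT (its first 6 letters, which can lie inside the last) and the CArG box, the binding element of serum response factor.
JUN (chr1:58784048-58784297, minus strand): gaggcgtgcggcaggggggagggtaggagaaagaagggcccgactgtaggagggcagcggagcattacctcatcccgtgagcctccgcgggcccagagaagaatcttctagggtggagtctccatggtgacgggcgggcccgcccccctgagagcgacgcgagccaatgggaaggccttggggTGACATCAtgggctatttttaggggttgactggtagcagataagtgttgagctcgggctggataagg
JUNB (chr19:12791236-12791485, plus strand): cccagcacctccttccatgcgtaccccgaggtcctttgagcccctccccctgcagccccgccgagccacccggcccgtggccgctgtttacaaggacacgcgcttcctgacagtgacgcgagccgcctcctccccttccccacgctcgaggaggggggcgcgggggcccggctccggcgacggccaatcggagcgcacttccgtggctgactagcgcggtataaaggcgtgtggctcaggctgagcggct
EGR1 (chr5:138465229-138465478, plus strand): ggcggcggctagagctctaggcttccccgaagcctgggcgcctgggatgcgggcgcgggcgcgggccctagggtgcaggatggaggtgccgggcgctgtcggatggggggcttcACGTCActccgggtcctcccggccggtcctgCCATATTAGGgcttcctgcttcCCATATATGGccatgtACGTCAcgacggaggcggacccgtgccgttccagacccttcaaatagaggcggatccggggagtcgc
FOS (chr14:75278578-75278827, plus strand): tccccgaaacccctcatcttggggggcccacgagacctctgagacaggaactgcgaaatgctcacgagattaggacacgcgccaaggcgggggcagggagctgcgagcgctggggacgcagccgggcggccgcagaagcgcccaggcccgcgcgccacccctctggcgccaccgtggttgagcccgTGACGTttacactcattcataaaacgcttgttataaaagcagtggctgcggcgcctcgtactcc
JUN holds TGACATCA from 67 to 60 bases before its start. EGR1 holds 2 CArG boxes, CCATATTAGG and CCATATATGG, starting 105 and 83 bases before its start, and 2 TGACGT matches on the opposite strand, starting 136 and 67 bases before it. Within its window FOS holds a single TGACGT, 64 bases before its start, and the window of JUNB holds none of these letters. Sequence more than 250 bases upstream was not searched, so the absence of an element covers this window only. Among the 9 members with a sequence in the table (FOSL1 had none), 5 held TGACGT, 3 held TGANNTCA, 1 the CArG box and 0 TGANTCA. Over all 35116 promoters of the same length 7.10% held TGACGT, 10.1% TGANNTCA, 1.16% the CArG box and 6.57% TGANTCA. Per gene, as the members were counted, the shares of the 10890 tested genes with a sequence were 12.4%, 10.01%, 1.44% and 6.19% in that order. A match is a description of letters, and binding was not measured.

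Most of the members are compact genes. Their median span was 5843 bases against 26286 for all genes tested, with ATF3 (55444 bases) and FOSL2 (24870) the longest. JUN, JUNB and JUND have 1 exon in GENCODE 29, as do 8.39% of tested genes. JUNB, JUND, IER2 and FOSB lie on chromosome 19, which holds 6.53% of tested genes. A short gene overlapping a neighbour can share reads with it, and no source used here states if strand entered the counting. All 1830 bases of JUNB (chromosome 19, 12791486 to 12793315, plus strand) lie within the span of HOOK2 on the opposite strand, and all 7185 bases of FOSB within that of ERCC1. HOOK2 had 2560 counts in all against 2805 for JUNB, and its log2 fold change was 0.05 (adjusted p = 0.758). ERCC1 had 2910 counts against 150 for FOSB. The values of FOSB and JUNB are uncertain to that extent, and no other member overlapped a gene with more than 10 counts.

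Per length, JUN and FOSL1 were the most abundant members and FOS and FOSB the least. Mean levels over the 6 libraries were 25.0 FPKM for JUN, 23.03 for FOSL1, 16.3 for EGR1, 13.8 for JUNB, 13.7 for IER2, 11.9 for JUND, 5.98 for FOSL2, 2.74 for ATF3, 1.07 for FOS and 0.245 for FOSB. The ranges of JUN and FOSL1 overlapped, and so did those of each neighbouring pair from EGR1 down to JUND. From JUND on, the ranges of neighbours did not overlap. FOSL1 thus made up 76.02% ± 1.12 of the summed FPKM of the FOS family in vector cells and 75.9% ± 2.96 in ELAPOR1 cells (SD, n = 3 each). FOS itself made up 4.15% ± 1.05 and 2.91% ± 0.652. JUN made up 48.6% ± 1.24 of the JUN family in vector cells and 50.1% ± 2.41 in ELAPOR1 cells, with JUNB at 28.04% and 26.4% and JUND at 23.4% and 23.6%. For every member of either family, the ranges of its share overlapped between the groups.

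**Figure D1:**
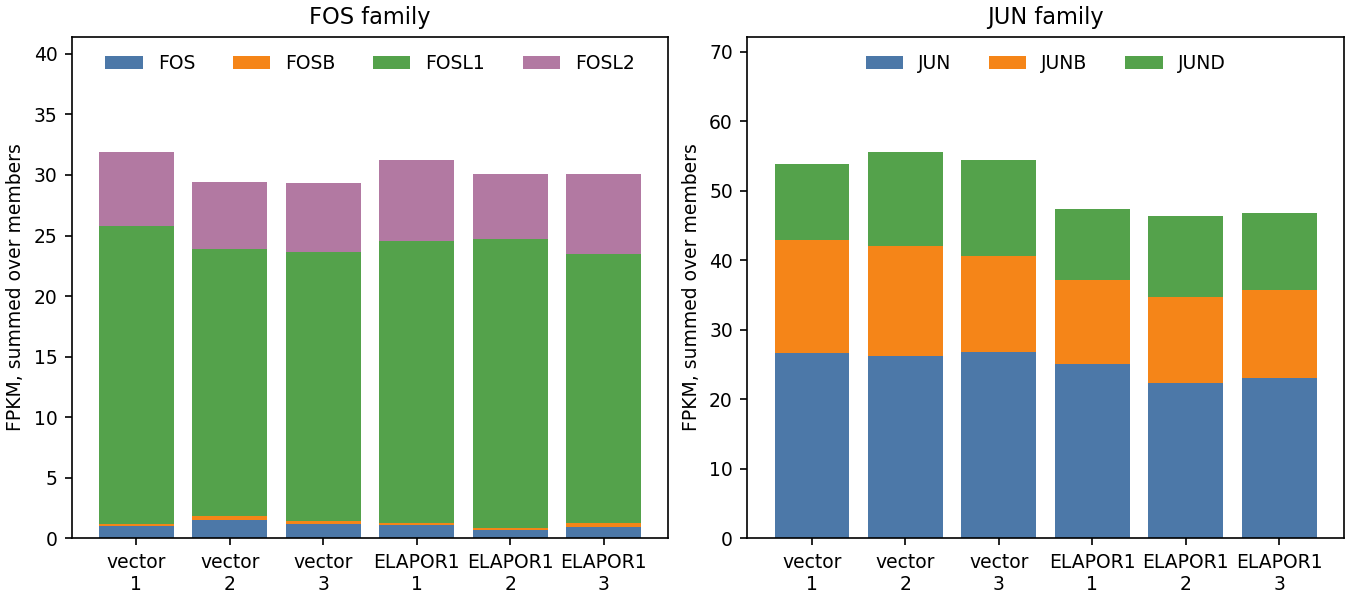
Summed FPKM of the FOS family (left) and the JUN family (right) in each of the 6 libraries, stacked by member. FOSL1 fills most of each FOS bar, and the JUN bars run from 53.9 to 55.5 in vector libraries and from 46.4 to 47.4 in ELAPOR1 libraries.

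JUN, JUNB and EGR1 fell in ELAPOR1 cells, with changes of -10.3%, -18.3% and -11.2%, and no member rose. Of the 10 members 3 were called lower, where 11.4% of all tested genes were, and 0 higher, where 10.0% were. Called in either direction were 30.0% of the members, against 21.4% of all genes. Estimates were below 0 for 7 of the 10, against 7844 of 16003 genes tested, and the median log2 fold change of the members was -0.16, against 0.00407. Groups did not overlap for 4 members, all lower, where 17.4% of tested genes lay lower without overlap. Of the 16003 genes tested, 2788 lay lower and 2623 higher without overlap. The members and lists were chosen with earlier results of these data known, so these shares describe them and are no test. In bulk RNA, less RNA per cell and fewer cells with the RNA cannot be told apart.

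**Figure D2:**
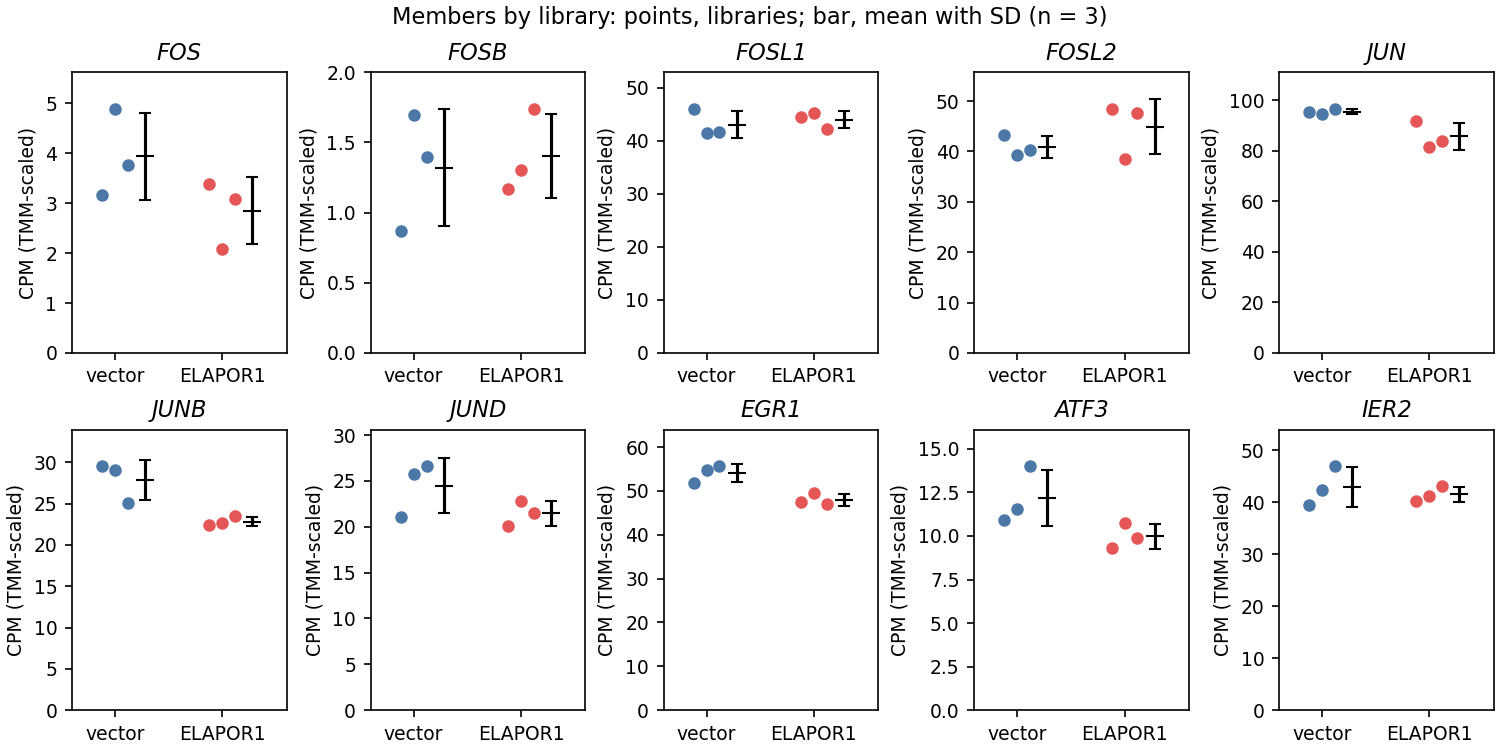
Scaled counts (CPM, counts scaled to library size with TMM factors) of each member in the 3 vector and 3 ELAPOR1 libraries, with the mean and SD beside them. For JUN, JUNB, EGR1 and ATF3 every ELAPOR1 library lies below every vector library, while for the other 6 members the groups overlap.

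Among the JUN genes, which encode the obligate partners of FOS proteins, JUN encodes the strongest activator of the family. It stood at 95.6, 94.5 and 96.7 CPM in the vector libraries and at 91.8, 81.6 and 84.1 CPM in the ELAPOR1 libraries. The vector libraries lay close together, and the highest ELAPOR1 library was 2.64 CPM below the lowest of them. The log2 fold change of JUN was -0.16 (SE 0.0484, edgeR adjusted p = 0.0128). JUNB, a weaker activator that can restrain JUN, stood at 29.5, 29.002 and 25.05 CPM in vector and 22.4, 22.6 and 23.5 CPM in ELAPOR1 libraries. Vector library 3 was nearest to the ELAPOR1 group. The log2 fold change of JUNB was -0.29 (SE 0.0856, edgeR adjusted p = 0.00825). JUND, which is expressed more steadily and is linked to slower growth, stood at 21.1, 25.8 and 26.6 CPM in vector and 20.1, 22.8 and 21.5 CPM in ELAPOR1 libraries. The first vector library fell among the ELAPOR1 libraries. JUND had a log2 fold change of -0.19 (95% interval -0.37 to -0.0022) and was not called (edgeR adjusted p = 0.151). Summed over the 3 genes, the FPKM of the JUN family was 54.6 ± 0.806 in vector and 46.9 ± 0.513 in ELAPOR1 cells (SD, n = 3 each), and the groups did not overlap. ELAPOR1 counts enter the library totals of FPKM, so that the FPKM of every other gene in the ELAPOR1 libraries is lower by the share they took.

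No FOS family gene passed the test. FOS, the classic serum-induced proto-oncogene, had only 40 to 101 counts per library. It stood at 3.17, 4.89 and 3.76 CPM in vector and 3.38, 2.09 and 3.09 CPM in ELAPOR1 libraries, so the groups overlapped. Its log2 fold change of -0.48 was the lowest of the members, with a 95% interval of -0.95 to -0.0015 (edgeR adjusted p = 0.156). FOSB, whose short isoform cannot be told from the full one in gene counts, had 17 to 35 counts per library and means of 1.32 ± 0.418 and 1.40 ± 0.298 CPM (SD, n = 3 each). The interval of its log2 fold change ran from -0.67 to 0.85, so changes within it were not resolved with these libraries. FOSL1, the dominant FOS gene here, stood at 46.03, 41.4 and 41.7 CPM in vector and 44.4, 45.3 and 42.3 CPM in ELAPOR1 libraries. The 2 groups covered nearly the same range, with a log2 fold change of 0.03 and a 95% interval of -0.10 to 0.16. FOSL2 stood at 43.3, 39.2 and 40.2 CPM in vector and 48.5, 38.6 and 47.7 CPM in ELAPOR1 libraries. Its second ELAPOR1 library was the lowest of all 6 while the other ELAPOR1 libraries were the highest. The log2 fold change of FOSL2 was 0.13 (edgeR adjusted p = 0.193), and without ELAPOR1 replicate 2 it was 0.23 (adjusted p = 0.0189). The FPKM of the FOS family summed to 30.2 ± 1.45 in vector and 30.4 ± 0.65 in ELAPOR1 cells (SD, n = 3 each).

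EGR1, a zinc finger factor induced with FOS by serum response factor, stood at 51.8, 54.9 and 55.7 CPM in vector and 47.4, 49.6 and 47.1 CPM in ELAPOR1 libraries. All ELAPOR1 libraries were lower, with a gap of 2.24 CPM between the groups. The log2 fold change of EGR1 was -0.17 (SE 0.0604, edgeR adjusted p = 0.0323). ATF3, a stress-induced bZIP factor that often represses, stood at 10.9, 11.6 and 14.01 CPM in vector and 9.29, 10.8 and 9.88 CPM in ELAPOR1 libraries. Its groups were just separate, but it was not called, at a log2 fold change of -0.28 (95% interval -0.53 to -0.03, adjusted p = 0.108). IER2, a small nuclear protein of the early response, stood at 39.4, 42.3 and 46.9 CPM in vector and 40.2, 41.2 and 43.04 CPM in ELAPOR1 libraries. The ELAPOR1 values lay inside the vector range, with a log2 fold change of -0.04 (adjusted p = 0.727).

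**Figure D3:**
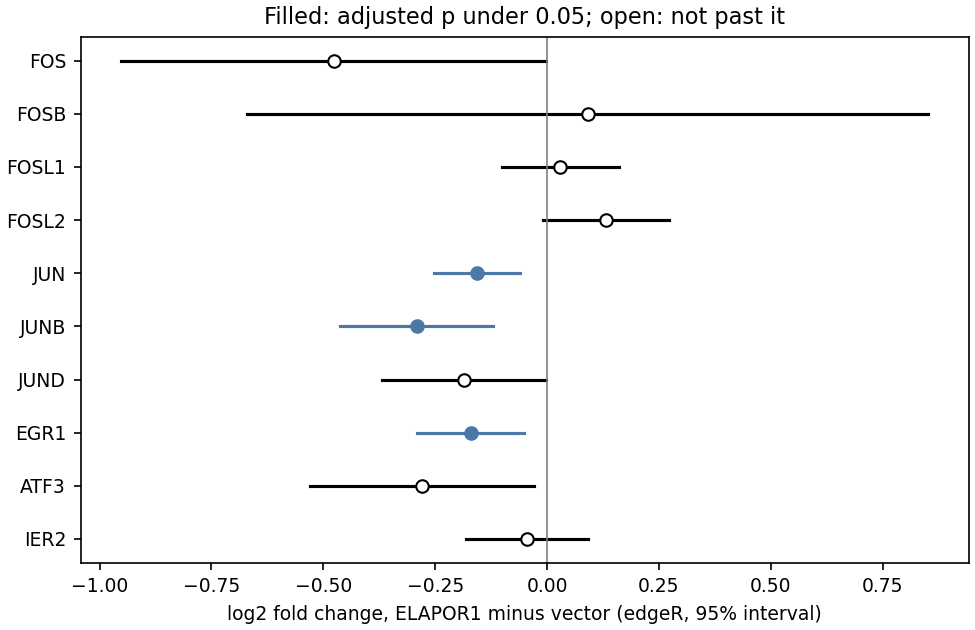
log2 fold change of each member, ELAPOR1 minus vector, from edgeR with its 95% interval; filled points passed an adjusted p under 0.05. JUN, JUNB and EGR1 are filled and below 0, and the widest intervals are those of FOSB and FOS.

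The calls of all 3 members were lost when some single libraries were left out, which also leaves fewer replicates, while the estimates stayed below 0. JUN was not called without ELAPOR1 replicate 2 (log2 fold change -0.12, adjusted p of 0.125) or ELAPOR1 replicate 3 (-0.14, 0.0679), and JUNB not without vector replicate 1 (-0.25, 0.0550) or vector replicate 2 (-0.26, 0.0501). EGR1 was not called with DESeq2 (0.0934), nor without vector replicate 2, vector replicate 3, ELAPOR1 replicate 1 or ELAPOR1 replicate 3, at log2 fold changes of -0.16 to -0.15 and adjusted p of 0.0958 to 0.125. The number of members called was 1 without vector replicate 2 and 1 without ELAPOR1 replicate 3, and JUND was called without vector replicate 1 (0.0283). The authors' deposited table gives adjusted p of 0.0117 for JUN, 0.00827 for JUNB and 0.0294 for EGR1 and no other member under 0.05, where 19.1% of its genes with an adjusted p are. Within groups, deviations of the members from their group means were correlated in either direction. Over the 45 pairs of members the median correlation across the 6 libraries was -0.11, with 20 pairs above 0, from -0.94 for FOSB and FOSL1 to 0.92 for JUND and EGR1. These correlations share the 6 libraries and their scaling. Some spreads were near or below counting error, as for FOSL1 in ELAPOR1 cells (coefficient of variation 3.54%, where counting error alone gives 3.58%). With so few libraries the correlations cannot show whether the members move together.

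Among other immediate early genes, estimates were below 0 for 19 of 28 tested, where 7844 of 16003 genes were, and those of EGR3, ARC, BTG2, EGR2 and NR4A1 were lower than that of any member. Of the 28 tested (29 were listed), 7 were called lower and 1 higher, which is 28.6% called against 21.4% of all genes, with a median log2 fold change of -0.16. EGR3, a paralog of EGR1 that is induced with it, stood at 6.90, 8.28 and 6.004 CPM in vector and 2.40, 2.35 and 2.13 CPM in ELAPOR1 libraries. Every ELAPOR1 value was below the lowest vector value, a 3.09-fold drop with an adjusted p of 9.54e-10. ARC, an activity-induced gene best known from neurons, fell 3.80-fold from 1.93 ± 0.408 to 0.499 ± 0.243 CPM (SD, n = 3 each), on 4 to 13 counts in the ELAPOR1 libraries, with an adjusted p of 0.000386. BTG2, an antiproliferative early gene, fell from 32.5 ± 1.77 to 18.9 ± 2.36 CPM with an adjusted p of 2.53e-11. NAB2, a corepressor of EGR proteins that EGR1 is known to induce, fell from 27.1 ± 1.29 to 20.6 ± 0.519 CPM with an adjusted p of 0.000318. NAB2 overlaps STAT6 on the opposite strand by 69 bases only. The orphan receptor gene NR4A1, the survival gene MCL1 and PLK2 also fell, with log2 fold changes of -0.60, -0.25 and -0.29, and KLF10, the gene called higher, rose by 0.19. NR4A1 was not called without vector replicate 3 (adjusted p = 0.239), ELAPOR1 replicate 1 (0.124) or ELAPOR1 replicate 3 (0.0895), nor on all libraries with DESeq2 (0.110) or limma on log2(FPKM + 1) (0.240) and log2(FPKM + 0.1) (0.266). KLF10 was not called without vector replicate 1 (0.0655) or with these limma fits (0.0751 and 0.0770). PLK2 was not called without vector replicate 1 (0.154), vector replicate 3 (0.0690) or ELAPOR1 replicate 2 (0.463), nor with DESeq2 (0.175, and 0.0793 with a local trend) or limma (0.196 and 0.199). NAB2, NR4A1, MCL1, PLK2 and KLF10 were picked for naming after their values were seen. Not called were 20 genes, among them EGR2, EGR4, DUSP1, CCN1 and CCN2, at means of 0.518 to 4.50 CPM. Others of these were abundant, as IER3, NAB1 and ZFP36L1, at 142, 128 and 88.9 CPM in vector cells. Their log2 fold changes were 0.08, 0.01 and -0.09. KLF2 had the highest estimate of the list, 0.91 (adjusted p = 0.116), on 11 to 34 counts per library.

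Upstream of the members, 4 of 20 tested kinases and serum response factor partners were called lower (20.0%), where 11.4% of all tested genes were. In the other direction 0 were called higher, where 10.0% were. Called in either direction were 20.0%, against 21.4% of all genes. Estimates were below 0 for 15 of the 20, against 7844 of 16003 genes tested. MAP2K1, the kinase MEK1 that activates ERK, stood at 89.7, 88.7 and 89.4 CPM in vector and 75.3, 75.7 and 76.03 CPM in ELAPOR1 libraries. The libraries of each group were within 1 CPM of each other, on 1224 to 1833 counts per library. That is closer than counting error would give, so it is no measure of precision. The log2 fold change of MAP2K1 was -0.24 (adjusted p = 9.85e-05). MAP2K1 overlaps SNAPC5 on the opposite strand by 1410 bases. SNAPC5 had 1597 counts in all against 9091 for MAP2K1, and a log2 fold change of 0.10. The ternary complex factor genes ELK1 and ELK4, whose products bind beside serum response factor and carry the ERK signal, fell. Their log2 fold changes were -0.19 each (adjusted p = 0.00829 and 0.0218). ELK3, of the same family, went the other way, with every ELAPOR1 library above every vector library. Its log2 fold change of 0.33 was the highest of the list, and it was not called (adjusted p = 0.0575). MAP2K2 was the other gene called, at -0.16. ELK4 was not called without vector replicate 1 (adjusted p = 0.161), ELAPOR1 replicate 1 (0.0531) or ELAPOR1 replicate 3 (0.180), nor with DESeq2 (0.0907) or limma (0.145 and 0.140). MAP2K2 was not called without vector replicate 2, vector replicate 3, ELAPOR1 replicate 1 or ELAPOR1 replicate 3, at adjusted p of 0.0566 to 0.201, nor with DESeq2 (0.0881) or limma (0.0659 and 0.0674). SRF itself was at 0.06 on the log2 scale (adjusted p = 0.560). The ERK gene MAPK3 was at -0.07 and the JNK gene MAPK8 at -0.14, neither called (adjusted p = 0.615 and 0.0611). The median of the list was -0.07.

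Among 12 bZIP partners, 10 were tested, 2 were called higher and 1 lower (30.0% called, against 21.4% of all genes), with a median log2 fold change of 0.01. JDP2, a bZIP protein that dimerises with JUN and represses AP-1, stood at 16.6, 17.7 and 16.9 CPM in vector and 23.6, 22.9 and 22.8 CPM in ELAPOR1 libraries. All ELAPOR1 libraries were higher, with a log2 fold change of 0.44 (adjusted p = 0.000204). MAFG, a small MAF protein, rose by 0.15 (adjusted p of 0.00425), and it overlaps SIRT7 on the same strand, which rose by 0.19. MAFF fell, with a log2 fold change of -0.31 (adjusted p = 0.0368), a call lost without vector replicate 2, vector replicate 3, ELAPOR1 replicate 1 or ELAPOR1 replicate 3, at adjusted p of 0.0519 to 0.175. It was also lost with DESeq2 (adjusted p = 0.122), with no filter (0.0614) and with limma (0.0766 and 0.0725). MAFF overlaps PLA2G6, which had 1178 counts in all against 1469 and a log2 fold change of 0.26. ATF2 and ATF7, partners of JUN, were at -0.05 and -0.04 on the log2 scale (adjusted p = 0.617 and 0.728). CREB5 and BATF3 were too low to test.

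Textbook AP-1 target genes went both ways. Of 20, 15 were tested, 5 were called higher and 4 lower (60.0% called, against 21.4% of all genes), with a median log2 fold change of 0.09. MMP7, an epithelial matrix protease, rose 2.96-fold from 4.60 ± 0.535 to 13.6 ± 1.29 CPM (SD, n = 3 each; adjusted p of 1.35e-14), and HMOX1, heme oxygenase, rose 2.21-fold from 1.07 ± 0.201 to 2.37 ± 0.356 CPM (adjusted p of 0.0111). CD44, PLAU and EZR rose by 0.90, 0.60 and 0.32 on the log2 scale. CXCL8, the chemokine interleukin 8, and the protease inhibitor gene TIMP1 fell, with log2 fold changes of -0.71 and -0.43, and so did the cytokine gene LIF, with -0.27. LIF was not called without vector replicate 1 (adjusted p = 0.133), vector replicate 2 (0.0642) or ELAPOR1 replicate 3 (0.224), nor with DESeq2 (0.118), no filter (0.0528) or limma (0.0620 and 0.0624). PLAU was not called with limma (0.0589 and 0.0618), and HMOX1 not without vector replicate 2 (0.0536) or ELAPOR1 replicate 1 (0.0678). CCND1, cyclin D1, was at 0.05 on the log2 scale (adjusted p = 0.252) and VEGFA at 0.09 (adjusted p = 0.0898). The collagenase and stromelysin genes MMP1, MMP3, MMP9, MMP10 and MMP13 were too low to test, and MMP3 and MMP10 had 0 counts in all 6 libraries. CD44, PLAU, EZR, CXCL8, TIMP1, LIF and MAP2K2 were picked for naming after their values were seen.

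**Figure D4:**
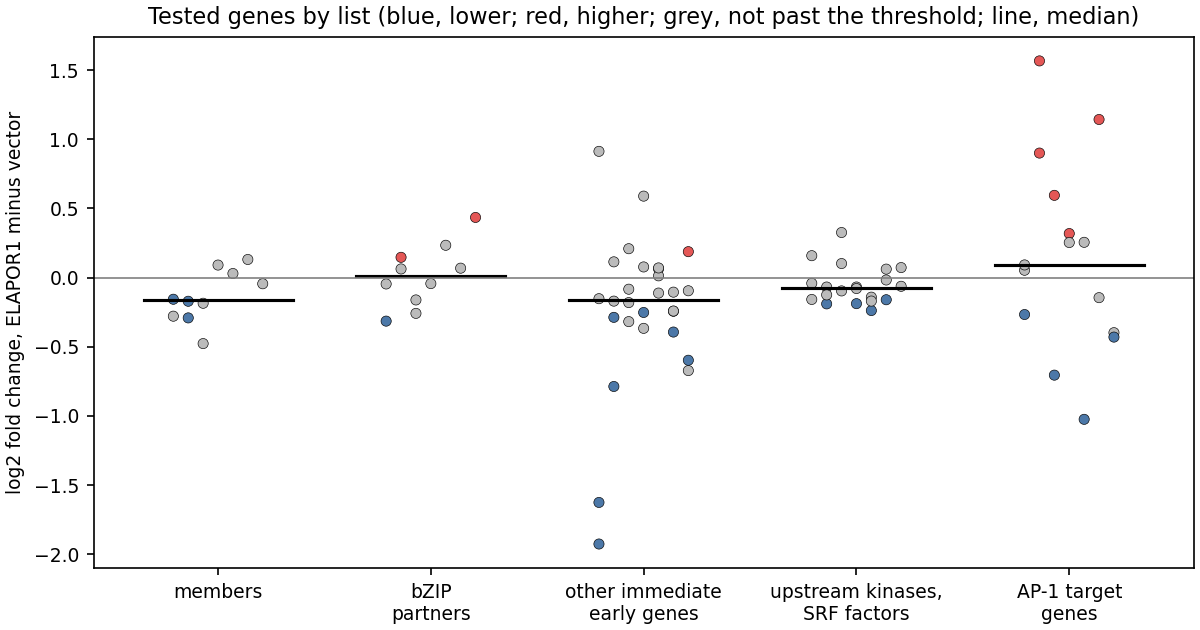
log2 fold change (ELAPOR1 minus vector) of each tested gene by list, with the median as a line; blue genes were called lower, red higher and grey were not called. The members lie between -0.48 and 0.13, the other immediate early genes reach down to -1.93 (ARC) and the AP-1 target genes reach up to 1.57 (MMP7).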

How the data were processed

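Counts and FPKM of K-1 to K-3 (ELAPOR1, older symbol KIAA1324) and NC-1 to NC-3 (negative control) were used as deposited. The counts are raw reads per gene, deposited without normalization. Tools named in the submitters' processing notes are HISAT2 2.0.1, HTSeq 0.6.1, cutadapt 1.9.1 and DESeq2, with build GRCh38. FPKM were deposited by the authors. The authors' deposited comparison gives the log2 fold change, its error, the Wald statistic (a score), the mean normalized signal and the p-value per gene, of which the log2 fold changes and p-values were read. The two-sided quasi-likelihood test of edgeR 4.0.16 (R 4.3.3) was run on the counts of all 6 libraries with filterByExpr and TMM factors, with p-values adjusted over 16003 genes. Standard errors come from the log2 fold change and the square root of F.

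Named are the members, ELAPOR1 and from each list up to 3 called genes with the largest change; results for some list genes are not reported here. The members and lists were chosen with earlier results of these data known. Within groups, pairs of libraries had a mean chi-square per gene of 2.45 to 3.64, above the 1 of sampling noise, so none was treated as a copy of another. In a simulated ELAPOR1 against vector comparison of 15543 genes, edgeR recovered 62.7% of 1.25-fold, 89.6% of 1.5-fold and 95.5% of 2-fold changes, with 7 false calls among 172. Changes under 1.25-fold, which include those of JUN, JUNB and EGR1, were not simulated. The changed genes were drawn with the least abundant genes left out, so these shares need not hold for genes with few counts. Alternatives were DESeq2 1.42.0, other scalings and filters, a replicate block, limma 3.58.1 with a mean trend on log2(FPKM + 1) and log2(FPKM + 0.1), the ELAPOR1 row removed, and each library removed in turn.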

Additional observations from a re-analysis of the deposited data

How the results depend on the processing

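The 3427 genes called became 2133 with limma on log2(FPKM + 1) and 2098 with log2(FPKM + 0.1), and the 24 called in the bZIP, immediate early, upstream and target lists became 15 with either; fewer genes were tested there (14926), and whether that is the cause was not tested. Leaving out 1 library gave 2723 to 3187 genes, 1 to 3 members and 20 to 23 list genes. With the replicate block 3361 genes, 3 members and 24 list genes were called, and no call of a member changed. Deviations of same-numbered libraries correlated at -0.01, -0.03 and -0.03 and for 0 of 6 libraries was the own number the best match, so the numbers were not treated as pairs. JUN and JUNB kept their call in 14 of 16 alternatives and EGR1 in 11, all with the same sign. The alternatives draw on the same 6 libraries, so such tallies are not independent support. Of the 16 called genes named by the rule, 10 kept their call wherever a value was given, among them EGR3, ARC, BTG2, JDP2, MAP2K1 and MMP7. The 10 include ELAPOR1, the introduced gene, whose log2 fold change was at least 10.06 throughout and whose call could hardly be lost. The other 6 (JUN, JUNB, EGR1, MAFF, ELK4 and HMOX1) lost it in at least 1. Of the 12 picked later, 6 kept it (NAB2, MCL1, CD44, EZR, TIMP1 and CXCL8). FOSB changed sign in 2 of 14 alternatives and IER2 in 1 of 16, neither called. DESeq2 with a local dispersion trend, chosen after seeing the data and counted among the alternatives, gave 3263 genes and 3 members. Its values for the members equal those of the authors' deposited table, so both are the same result. Counting error alone gives a coefficient of variation of 11.5% (vector) and 14.1% (ELAPOR1) for FOS, where 22.2% and 23.8% were seen, and of 20% in each group for FOSB, where 31.7% and 21.2% were seen.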

Other observations

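Genes whose upstream 250 bases hold the elements searched above were described as sets. Of 10890 tested genes with a sequence, 24.2% were called and 13.1% were lower. The CArG box was found in 157 of them, of which 21 were called higher and 33 lower (34.4% called), with a median log2 fold change of -0.0023. TGANTCA was found in 674, with 85 higher and 105 lower (28.2% called) and a median of -0.01. TGACGT was found in 1347, with 145 higher and 200 lower (25.6% called), and TGANNTCA in 1090, with 123 higher and 144 lower (24.5% called). These counts describe the sets and were given no test, and EGR1 is itself in the CArG set.

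The 5 genes whose log2 CPM followed FOS most closely over the 6 libraries were MRPS33, ISCU, NIPA1, SDHAF2 and CHCHD7, with Pearson r between 0.983 and 0.995. Of 14287 genes compared, 150 reached an r of at least 0.9 with these 6 points, which share libraries and scaling. No chance level was computed for so many comparisons, so these r do not show a link to FOS.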
